A study of Mus musculus with 14 samples.

Results

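10 endothelial and blood-brain barrier genes were followed in the fetal brain of mice lacking the type 3 deiodinase (DIO3), the enzyme that inactivates thyroid hormones. They are Cldn5, Cldn12, Pecam1, Cdh5, Kdr, Flt1, Tek, Mfsd2a, Abcb1a and Esam. The members are a list of gene symbols drawn up with earlier results of these data known, and all 10 were found among the 41934 genes of the table of each age. None of these symbols was shared by several entries. The members passed the filter on low counts at both ages.

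RNA sequencing was performed on whole brains from individual male littermate fetuses on a C57BL/6J background. At gestational age E13.5 there were 4 Dio3+/+ and 2 Dio3-/- fetuses, and at E18.5 there were 3 Dio3+/+ and 5 Dio3-/- fetuses. The labels name no treatment. The Dio3-/- fetuses carry point mutations in all cells that inactivate the enzyme but leave the Dio3 transcript, and the dams were heterozygous.

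Endothelial cells line the vessels of the brain and hold the blood-brain barrier: claudins and junctional adhesion molecules seal the cells to each other, few vesicles cross them, and transporters carry nutrients in and drugs out. Vessels grow into the neural tube in answer to vascular endothelial growth factor (VEGF) and Wnt ligands from neural cells, and angiopoietins acting on the receptor TEK stabilize them. Thyroid hormones cross the same wall with the help of transporters such as SLCO1C1 (OATP1C1).

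The gene that turned out to differ most clearly, Cldn12, lies on chromosome 5 (GRCm38, chr5:5489537-5514958, reverse strand). Its whole reading frame of 732 bases sits in 1 exon (chr5:5507694-5508425), so that every full transcript encodes the same protein. The stretch of that coding exon that the primers of the study amplify (chr5:5508130-5508294, 165 bases) is shown to identify the transcript, with the primer sites in capitals.
Cldn12 amplicon: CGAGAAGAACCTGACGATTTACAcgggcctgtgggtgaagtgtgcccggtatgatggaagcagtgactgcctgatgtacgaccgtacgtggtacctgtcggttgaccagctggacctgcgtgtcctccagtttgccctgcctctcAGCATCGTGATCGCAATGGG
Vegfa, the main VEGF ligand, lies at chr17:46016993-46032369 (reverse strand) and is described beside the VEGF receptors. Its primers, given to identify the transcript, fall outside the coding sequence.
Vegfa forward primer: aaaggcttcagtgtggtctgagag
Vegfa reverse primer: ggttggaaccggcatctttatc

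The promoters of the 2 members that were called at E18.5, Cldn12 and Flt1, are shown as RefSeq gives them on GRCm38.p6, from 250 bases before to 50 bases after a transcription start. Of the 10 members 7 had a promoter entry, and Pecam1, Cdh5 and Esam had none. Cldn12 had several entries, of which the one at chr5:5514740-5515039 (reverse strand) is given, with the core of an ETS site (CGGAAG on either strand) in capitals.
Cldn12 promoter: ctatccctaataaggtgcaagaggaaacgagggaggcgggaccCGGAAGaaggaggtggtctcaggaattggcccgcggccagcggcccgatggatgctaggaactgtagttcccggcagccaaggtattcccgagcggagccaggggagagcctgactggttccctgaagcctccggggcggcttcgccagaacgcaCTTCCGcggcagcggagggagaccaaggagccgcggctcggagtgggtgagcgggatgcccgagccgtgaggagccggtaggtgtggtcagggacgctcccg
The Flt1 promoter (chr5:147725962-147726261, reverse strand) is given with the cAMP-response element TGACGTCA in capitals, a motif that was added after the sequence had been read.
Flt1 promoter: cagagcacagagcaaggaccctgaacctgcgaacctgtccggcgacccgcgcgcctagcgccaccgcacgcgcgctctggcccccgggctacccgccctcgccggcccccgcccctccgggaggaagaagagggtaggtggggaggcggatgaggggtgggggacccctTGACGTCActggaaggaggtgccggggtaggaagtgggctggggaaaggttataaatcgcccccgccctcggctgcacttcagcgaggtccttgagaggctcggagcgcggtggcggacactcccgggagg
CGGAAG occurred 2 times in the Cldn12 promoter shown, at positions 44 and 199, and in 16.9% of 32851 mouse promoters of this length. TGACGTCA occurred 1 time in the Flt1 promoter, at position 170, and in 1.79% of all promoters. The letters of the nuclear receptor half-site (AGGTCA, in 16.3% of all promoters) and of the core hypoxia-response site (ACGTG, in 19.6%) were in neither sequence. Motifs were searched on both strands, and CGGAAG and TGACGTCA do not overlap. A match is a description of the letters and no evidence of binding.

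For each age the data give 1 mean normalized count per gene over all libraries of the age, and the log2 fold change between the genotypes (Dio3-/- relative to Dio3+/+) and its standard error, SE. They hold no value for a single fetus. Therefore the mean of each genotype is given here as implied by the mean count, the fold change and the group sizes, and whether single fetuses of the genotypes overlap for a gene cannot be read from these tables. The tables do not give the sequencing depth of a library, and the SE is the only measure of precision in them. A gene was called when its adjusted p (two-sided Wald test of the deposited DESeq2 comparison, with the Benjamini-Hochberg adjustment redone over all genes kept) was under 0.05. As a check of the model, Klf9, a gene induced by thyroid hormone, had a log2 fold change of 0.76 (SE 0.19) at E13.5 and 1.52 (SE 0.07) at E18.5. Dio3 itself had a log2 fold change of -0.89 (SE 0.23) at E13.5 and 1.10 (SE 0.15) at E18.5, and since the mutation leaves the transcript, its level does not check the genotype.

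The members were detected at both ages, at levels that differed widely between them. Their mean normalized counts ranged from 158 (Abcb1a) to 2543 (Kdr) at E13.5 and from 336 (Abcb1a) to 2407 (Kdr) at E18.5. Genes were compared with each other only after division by exon length, with all genes of an age scaled to sum to 1000000. On this scale of levels Cdh5 (67.6), Cldn5 (63.8) and Mfsd2a (50.9) stood highest at E13.5. Kdr (40.04) and Cldn12 (38.3) followed, then Esam (21.7), Pecam1 (20.7), Tek (17.3), Flt1 (10.2) and Abcb1a (4.09). At E18.5 Cldn5 stood first at 114, ahead of Cdh5 (55.3), Mfsd2a (50.02), Kdr (43.4) and Cldn12 (32.1). Flt1 (21.8), Esam (19.6), Tek (19.4), Pecam1 (18.9) and Abcb1a (9.96) came last. Among all genes kept by the filter, Abcb1a stood at percentile 20.3 of this scale at E13.5 and 40.2 at E18.5. No spread over fetuses is available for these levels, so neighbors in the order cannot be called different.

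**Figure D1:**
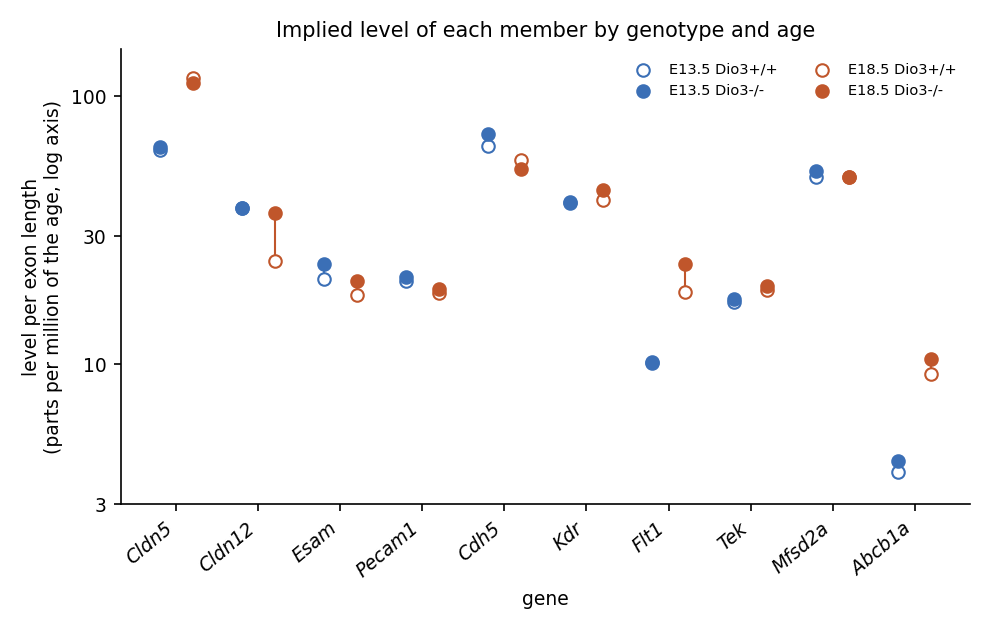
Level of each member per exon length (log axis, all genes of an age scaled to sum to 1000000) as implied for each genotype at E13.5 (blue) and E18.5 (orange), with open circles for Dio3+/+ and filled circles for Dio3-/-. The genotypes lie close together except at E18.5 for Cldn12, where the level was 24.2 in Dio3+/+ and 36.8 in Dio3-/-, and for Flt1, where it was 18.7 and 23.7.

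The ages were normalized separately, so the ratios between them are a description with no test. Cldn5, the chief claudin of brain endothelium, had a level 1.79 times as high at E18.5 as at E13.5. The ratio was 2.14 for Flt1, a VEGF receptor, and 2.44 for Abcb1a, which encodes the drug efflux pump P-glycoprotein. The other members lay between 0.818 (Cdh5) and 1.12 (Tek). These 3 genes thus had more of the reads at the later age, whereas the pan-endothelial genes Pecam1 and Cdh5 did not. The ratios pool the genotypes, whose shares of the libraries differ between the ages. In Dio3+/+ and Dio3-/- brains the implied ratio was 1.85 and 1.72 for Cldn5, 1.84 and 2.31 for Flt1, and 2.32 and 2.39 for Abcb1a. For Cldn12 the implied Dio3+/+ level went from 38.3 to 24.2, a ratio of 0.634. The implied Dio3-/- level of Cldn12 went from 38.4 to 36.8, a ratio of 0.957.

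At E13.5 none of the 10 members was called, and none had an unadjusted p under 0.05. Of all 16436 genes tested 3.56% were called at this age, 1.24% as higher and 2.32% as lower in Dio3-/- brains. All 10 fold changes were above 0 but small, from 0.01 for Cldn12 to 0.19 for Esam on the log2 scale. Their median was 0.05, against a median of -0.01 and a positive share of 46.7% over all genes tested. The members share vessels and libraries and are not independent of each other, and no test of their common sign was made. The 95% intervals of the members reach at the widest, for Abcb1a, from a fold change of 0.870 to 1.40, whereas that of Kdr runs from 0.917 to 1.13.

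At E18.5 2 of the 10 members were called, Cldn12 and Flt1, both higher in Dio3-/- brains. Of all 17607 genes tested 1.37% were called, 0.96% as higher and 0.415% as lower. Since the list was made with results known, its share is not read against that background. The median log2 fold change of the members was 0.09, and 7 of the 10 lay above 0, beside a median of 0.00 and a positive share of 50.9% over all genes. The intervals of the other 8 members lie between fold changes of 0.850 (the lower bound of Cdh5) and 1.31 (the upper bound of Abcb1a). A whole-brain value cannot tell more cells of a type from more RNA per cell.

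**Figure D2:**
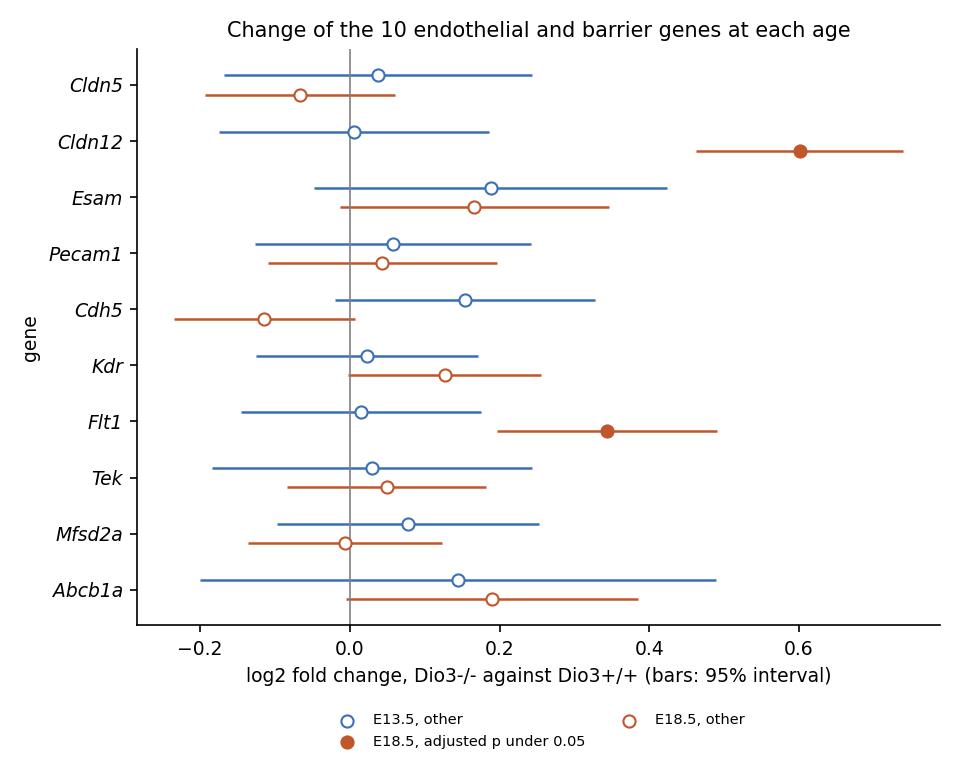
Log2 fold change of each member in Dio3-/- against Dio3+/+ brains at E13.5 (blue) and E18.5 (orange), with bars for the 95% interval and filled circles for an adjusted p under 0.05. Only Cldn12 (0.60) and Flt1 (0.34) are filled, both at E18.5, and all 10 intervals at E13.5 include 0.

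Among the junction genes, Cldn12 showed the largest difference. It encodes claudin-12, a tight junction protein whose expression in the brain is not restricted to endothelium. The implied mean normalized count at E18.5 was 630 in Dio3+/+ and 955 in Dio3-/- brains. The log2 fold change was 0.60 (SE 0.07, n = 3 and 5 fetuses), a fold change of 1.52 with a 95% interval of 1.38 to 1.67, and the adjusted p of DESeq2's Wald test was 3.76e-14. Ordered by p, Cldn12 was number 8 of the genes tested, and ordered by fold change it was number 120. At E13.5 its implied counts were 1137 in Dio3+/+ and 1142 in Dio3-/- brains (log2 fold change 0.01, SE 0.09, adjusted p by DESeq2 0.989). The change at E18.5 exceeded that at E13.5 by 0.59 on the log2 scale (SE 0.12, 95% interval 0.37 to 0.82), with an adjusted p of 0.000112 in a normal test of the difference across 17793 genes, of which 1.95% passed. Cldn12 was the only member that passed this test. When the Wald statistics were referred to a t distribution for these few fetuses, the adjusted p of Cldn12 was 0.317 at E18.5 and 0.169 for the difference between ages. That reference left 0 calls at E13.5 and 1 call at E18.5 among all genes.

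Cldn5, the other claudin of the list, gave implied counts of 630 and 647 at E13.5 and of 1021 and 975 at E18.5 in Dio3+/+ and Dio3-/- brains. Its log2 fold change at E18.5 was -0.07 (SE 0.06), with an interval of fold changes from 0.875 to 1.04 that does not reach the lower bound of Cldn12. Esam, an adhesion molecule of endothelial tight junctions, had log2 fold changes of 0.19 (SE 0.12, adjusted p 0.607 by DESeq2) at E13.5 and 0.17 (SE 0.09, adjusted p 0.684) at E18.5. Its implied counts were 418 and 476 at E13.5 and 320 and 359 at E18.5. Neither passed the test. Pecam1, which encodes the adhesion molecule CD31 and is a general marker of endothelium, had log2 fold changes of 0.06 (SE 0.09) and 0.04 (SE 0.08). Cdh5 encodes VE-cadherin, the adherens junction protein of endothelium, and had fold changes of opposite sign at E13.5 and E18.5. Its implied counts were 1926 and 2143 at E13.5 (log2 fold change 0.15, SE 0.09, adjusted p 0.522 by DESeq2) and 1500 and 1386 at E18.5 (log2 fold change -0.11, SE 0.06, adjusted p 0.667). The difference between the ages was -0.27 (SE 0.11, adjusted p 0.260 by the normal test) and did not pass.

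Of 17 genes kept in the list of other tight junction genes, 0 were called at E13.5 and 0 at E18.5 by DESeq2's Wald test. The list holds Ocln, Tjp1 and the junctional adhesion molecules, and also the gap junction genes Gja1 and Gja4. The smallest p at E18.5 belonged to F11r (JAM-A; log2 fold change 0.27, SE 0.15, adjusted p 0.659) and Jam2 (-0.10, SE 0.06, adjusted p 0.676), and at E13.5 to Gja4 (0.26, SE 0.14, adjusted p 0.449) and Cgnl1 (0.19, SE 0.11, adjusted p 0.503). None of these genes had an unadjusted p under 0.05 at either age. The median of their log2 fold changes was 0.03 at E13.5 and 0.00 at E18.5. The reads of Cldn12 and Cldn5 hold no 75-base window that also occurs in another gene, so they are not mixed with those of other claudins.

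Flt1 was the called member among the vascular receptors. FLT1 (VEGF receptor 1) binds VEGFA tightly and signals weakly, and its soluble form traps the ligand. The implied counts of Flt1 at E18.5 were 1550 in Dio3+/+ and 1966 in Dio3-/- brains. The log2 fold change was 0.34 (SE 0.07), or 1.27-fold with a 95% interval of 1.15 to 1.40, and the adjusted p by DESeq2 was 0.000883. At E13.5 the implied counts were 962 and 972 (log2 fold change 0.02, SE 0.08, adjusted p 0.977 by DESeq2). The difference between the ages, 0.33 (SE 0.11), had an adjusted p of 0.106 in the normal test, so the change of Flt1 was not shown to differ between E13.5 and E18.5. With the t distribution the adjusted p of Flt1 at E18.5 was 0.714. The gene (chr5:147561604-147726011, reverse strand) has 2 coding transcripts, one with 30 exons and a shorter one with 13 exons (chr5:147635159-147725988). Counts per gene do not separate them, so the membrane and truncated forms could not be told apart.

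Kdr (VEGF receptor 2), the main signaling receptor for VEGFA on endothelium, gave implied counts of 2529 and 2570 at E13.5. At E18.5 these were 2277 in Dio3+/+ and 2485 in Dio3-/- brains, a log2 fold change of 0.13 (SE 0.07, adjusted p 0.632 by DESeq2). The interval of Kdr, from just below 0 to 0.26 on the log2 scale, overlaps that of Flt1, and the difference between these receptors was not tested. Tek (TIE2), the angiopoietin receptor, had log2 fold changes of 0.03 (SE 0.11) at E13.5 and 0.05 (SE 0.07) at E18.5. Its implied counts were 568 and 580 at the earlier age and 550 and 569 at the later age.

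The ligands and partners of these receptors were given by a list of 14 genes, of which 13 passed the filter at each age. At E13.5 none was called by DESeq2's Wald test, and none had an unadjusted p under 0.05: the smallest p belonged to Plxnd1, a semaphorin receptor (log2 fold change -0.20, SE 0.11, adjusted p 0.461), and to Pgf, a ligand of FLT1 (-0.34, SE 0.24, adjusted p 0.694). At E18.5 3 were called, 2 as higher and 1 as lower, which is 23.1% of the list beside 1.37% of all genes. This list too was made with results known, and its share is not read against that background. Vegfa, the ligand of FLT1 and KDR, rose from an implied count of 1893 to 2411, a log2 fold change of 0.35 (SE 0.06, adjusted p 7.34e-07 by DESeq2). Its values at E13.5 were 1536 and 1545, and the difference between the ages was 0.34 (SE 0.09, adjusted p 0.0158 by the normal test). That difference lost its call when the statistics were scaled to their central spread (adjusted p 0.0629). Ptprb (VE-PTP), an endothelial phosphatase that restrains TEK, rose from 1212 to 1472 (log2 fold change 0.28, SE 0.07, adjusted p 0.0034 by DESeq2). Nrp2, a coreceptor for VEGF-C and semaphorins that neurons also express, fell from 5533 to 4953 (log2 fold change -0.16, SE 0.04, adjusted p 0.00367 by DESeq2). Angpt2, a ligand of TEK, had log2 fold changes of 0.24 (SE 0.21) at E13.5 and 0.24 (SE 0.11, adjusted p 0.511 by DESeq2) at E18.5. The median of the list was 0.01 at E13.5 and -0.01 at E18.5.

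**Figure D3:**
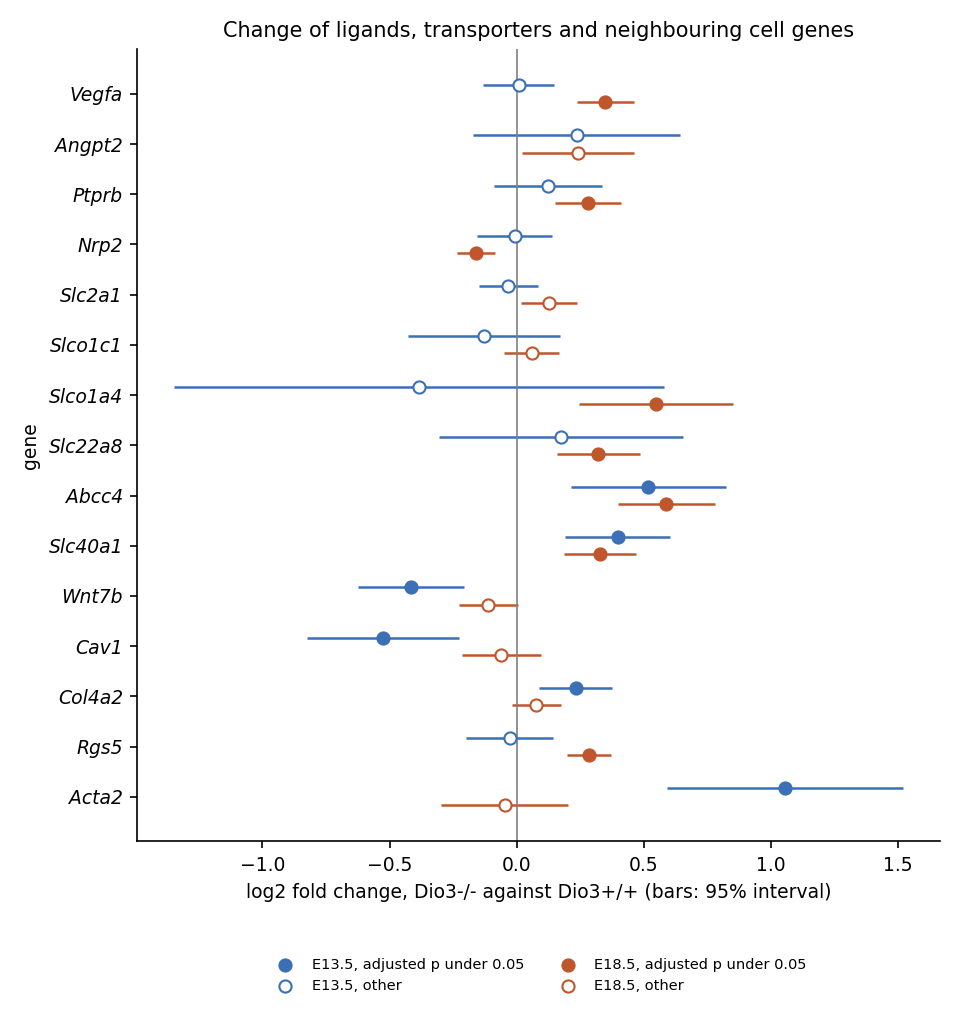
Log2 fold change of 15 named ligands, receptors, transporters and genes of neighboring cells in Dio3-/- against Dio3+/+ brains at E13.5 (blue) and E18.5 (orange), with bars for the 95% interval and filled circles for an adjusted p under 0.05. Vegfa (0.35), Ptprb (0.28), Nrp2 (-0.16), Slc22a8 (0.32), Slco1a4 (0.55) and Rgs5 (0.29) are filled at E18.5 only. Wnt7b (-0.42), Cav1 (-0.53), Col4a2 (0.23) and Acta2 (1.06) are filled at E13.5 only, and Abcc4 and Slc40a1 at both ages.

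The members that carry molecules across the endothelium did not pass the test at either age. Mfsd2a transports lipids carrying docosahexaenoic acid into the brain and limits vesicle traffic in barrier endothelium. Its implied counts were 790 and 834 at E13.5 (log2 fold change 0.08, SE 0.09) and 694 and 691 at E18.5 (log2 fold change -0.01, SE 0.07). The interval at E18.5 spans fold changes from 0.910 to 1.09. Abcb1a gave 152 and 168 at E13.5 (log2 fold change 0.14, SE 0.18) and 308 and 352 at E18.5 (log2 fold change 0.19, SE 0.10, adjusted p 0.651 by DESeq2). Of its 5434 windows of 75 bases in exons, 17.1% occur in another gene as well, mostly in the paralog Abcb1b. Its exons overlap a gene on the other strand over 553 bases, and the counting made no use of strand. Abcb1b itself had a mean normalized count of 12.1 at E13.5, under the filter, and 31.6 at E18.5 (log2 fold change 0.19, SE 0.27).

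Of the other blood-brain barrier transporters, 2 of 21 were called at E13.5 and 4 of 23 at E18.5, all higher in Dio3-/- brains. These calls make 9.52% and 17.4% of the list, beside 3.56% and 1.37% of all genes. Since the list was made with results known, these shares are not read against that background. The summed counts of the list in Dio3-/- over Dio3+/+ brains stood at 1.02 and 0.960. Abcc4, an efflux pump for organic anions and cyclic nucleotides, rose from 201 to 288 at E13.5 (log2 fold change 0.52, SE 0.16, adjusted p 0.0301 by DESeq2) and from 210 to 315 at E18.5 (0.59, SE 0.10, adjusted p 8.21e-07). The call at E13.5 was lost when no filter was applied (adjusted p 0.0558) and when the statistics were scaled to their central spread (0.114). Slc40a1, the iron exporter ferroportin, rose from 572 to 752 at E13.5 (0.40, SE 0.11, adjusted p 0.00874 by DESeq2) and from 564 to 708 at E18.5 (0.33, SE 0.07, adjusted p 0.00107). Slc22a8, an organic anion transporter, rose from 467 to 583 at E18.5 (0.32, SE 0.08, adjusted p 0.0129 by DESeq2), and Slco1a4, another one, rose from 97.0 to 142 (0.55, SE 0.15, adjusted p 0.0329). Without the filter the adjusted p of Slco1a4 was 0.0599. The glucose transporter gene Slc2a1 had log2 fold changes of -0.03 (SE 0.06) and 0.13 (SE 0.06, adjusted p 0.442 by DESeq2). The thyroid hormone transporter gene Slco1c1 had -0.13 (SE 0.15) at E13.5 and 0.06 (SE 0.05) at E18.5. The median of the list was -0.03 at E13.5 and 0.05 at E18.5. Abcc4, Slc40a1 and Slc22a8 are also expressed by other cells of the brain, such as those of the choroid plexus and macrophages.

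The 35 other pan-endothelial genes bear on whether all endothelial transcripts moved together. At E13.5 33 of them passed the filter and 0 were called by DESeq2, with 3 at an unadjusted p under 0.05. Erg (log2 fold change 0.51, SE 0.20, adjusted p 0.173) and Aplnr (0.26, SE 0.10, adjusted p 0.179) had the smallest p. At E18.5 all 35 passed, and 1 was called (2.86%, beside 1.37% of all genes). This was Ptprb, which is also in the VEGF and angiopoietin list. Log2 fold changes in this list had a median of 0.09 at the earlier and of -0.01 at the later age. The summed implied counts of Dio3-/- over Dio3+/+ brains stood at 1.05 and 1.02, and those of the 10 members at 1.05 and 1.10. At E18.5 the members summed to 9559 in Dio3+/+ and 10469 in Dio3-/- brains. Much of that rise lay in the 2 called genes, Cldn12 (630 to 955) and Flt1 (1550 to 1966), so the 1.10 does not describe the other members. Aplnr, the apelin receptor, had a log2 fold change of -0.18 (SE 0.08) at E18.5, and its change differed between the ages by -0.44 (SE 0.13, adjusted p 0.0388 by the normal test), although neither age alone passed. That call was lost when the statistics were scaled to their central spread (adjusted p 0.124). The transcription factor gene Erg differed by -0.78 (SE 0.24, adjusted p 0.0506 by the normal test) and did not pass, but passed among genes with a mean count of at least 50 at both ages (adjusted p 0.0402).

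**Figure D4:**
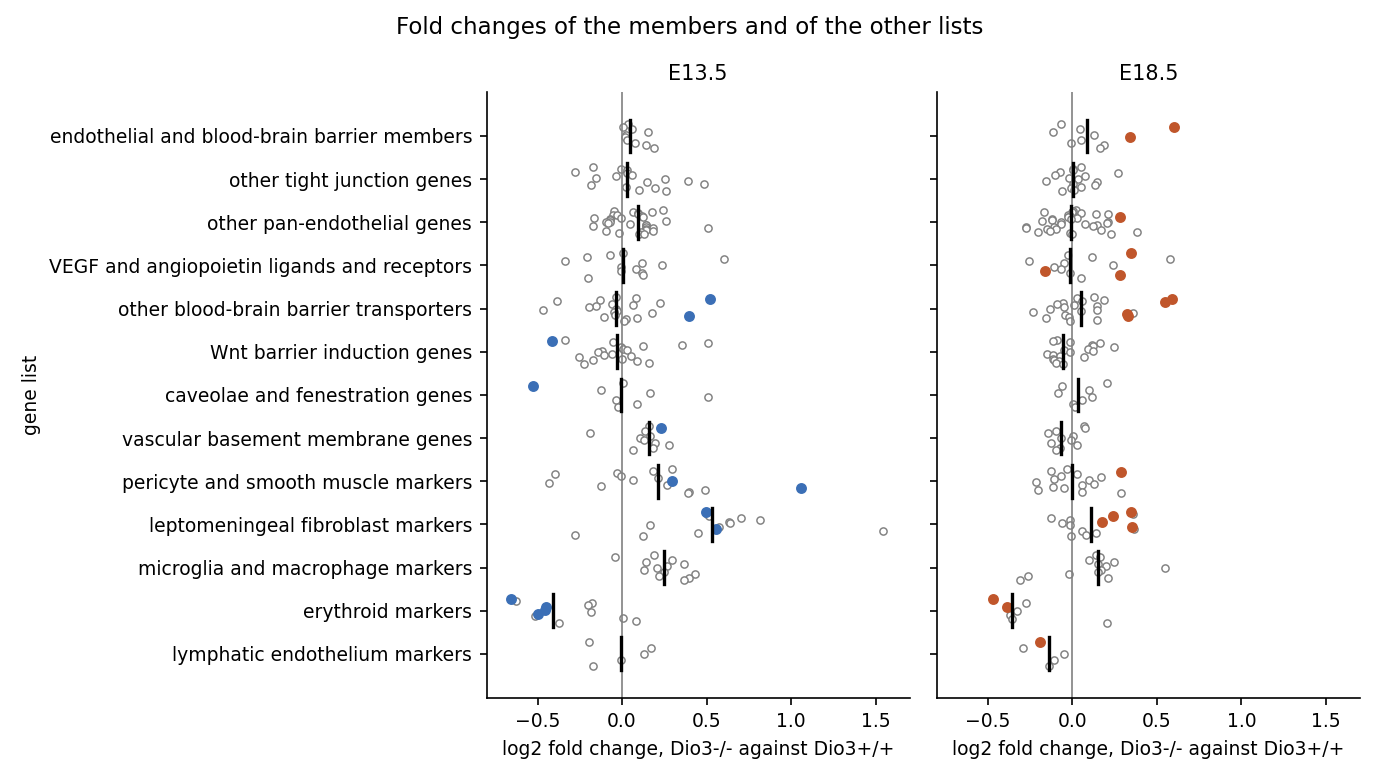
Log2 fold change of each kept gene of the members and of 12 other lists at E13.5 (left) and E18.5 (right), with filled circles for an adjusted p under 0.05 and a black bar for the median of the list. The medians of the members (0.05 and 0.09) lie near 0, whereas those of leptomeningeal fibroblast markers at E13.5 (0.53) and of erythroid markers (-0.41 and -0.36) lie away from it.

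Lists that describe how the barrier is induced and built gave 3 calls at E13.5 and 0 at E18.5 by DESeq2. At E13.5 the called share was 5% of the Wnt barrier induction genes, 12.5% of the caveolae and fenestration genes and 9.09% of the basement membrane genes, each from 1 gene, beside 3.56% of all genes. An unadjusted p under 0.05 was found at that age for 6 of 20, 2 of 8 and 4 of 11 of these genes, and for 1969 of all 16436. Of the basement membrane genes 10 of 11 lay above 0, with a summed ratio of Dio3-/- over Dio3+/+ counts of 1.10. Of the 20 genes of Wnt barrier induction, 1 was called at E13.5: Wnt7b, a ligand that neural cells send to endothelium, fell from 2672 to 2002 (log2 fold change -0.42, SE 0.11, adjusted p 0.00489 by DESeq2). At E18.5 0 were called by DESeq2 and 2 had an unadjusted p under 0.05, namely Adgra2, the WNT7 coreceptor GPR124 (0.17, SE 0.07, adjusted p 0.373), and Axin2, a Wnt target (-0.12, SE 0.06, adjusted p 0.555). Of 8 genes of caveolae and fenestrae, Cav1 (caveolin-1) fell at E13.5 from 425 to 295 (log2 fold change -0.53, SE 0.15, adjusted p 0.0211 by DESeq2), a call that was lost with scaling to the central spread (adjusted p 0.0883). None was called at E18.5 or had an unadjusted p under 0.05, with Plvap, the diaphragm protein of leaky vessels, at 0.21 (SE 0.14, adjusted p 0.834) and Cav2 at 0.10 (SE 0.08, adjusted p 0.892). Of 11 basement membrane genes, Col4a2 rose at E13.5 (0.23, SE 0.07, adjusted p 0.0499 by DESeq2), and the call was lost with scaling to the central spread (adjusted p 0.163) and with no filter (0.0920). At E18.5 0 were called by DESeq2 and 2 had an unadjusted p under 0.05, Nid1 (-0.13, SE 0.04, adjusted p 0.123) and Agrn (-0.10, SE 0.04, adjusted p 0.268).

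Other cell types that surround or fill vessels contribute to whole-brain RNA, and their markers moved as follows. Of 15 pericyte and smooth muscle markers, Acta2 (log2 fold change 1.06, SE 0.24, adjusted p 0.000833) and Vtn (0.30, SE 0.09, adjusted p 0.0466) rose at E13.5 by DESeq2, and the call of Vtn was lost without the filter (adjusted p 0.0862). Of 16 kept at E18.5, Rgs5, a pericyte gene, rose from 3639 to 4434 (0.29, SE 0.04, adjusted p 9.39e-08 by DESeq2). The called share of this list was 13.3% at E13.5 and 6.25% at E18.5, beside 3.56% and 1.37% of all genes. Its summed counts in Dio3-/- over Dio3+/+ brains stood at 1.02 and 1.00. Of its markers 10 of 15 lay above 0 at E13.5 (median 0.21) and 8 of 16 at E18.5 (median -0.0001). Of 14 leptomeningeal fibroblast markers, Crabp2 (0.56, SE 0.13, adjusted p 0.00128 by DESeq2) and Dcn (0.50, SE 0.14, adjusted p 0.0146) rose at E13.5, where the summed ratio was 1.55. The call of Dcn was lost with scaling to the central spread (adjusted p 0.0680). The summed ratio carries no error, and the median SE of this list at E13.5 was 0.31, beside 0.11 over all genes. Dcn (0.35), Slc6a20a (0.35), Ogn (0.24) and Col3a1 (0.17) rose at E18.5, where the ratio was 1.02. The called share of the fibroblast list was 14.3% at E13.5 and 28.6% at E18.5, beside 3.56% and 1.37% of all genes. The call of Ogn was lost with no filter (adjusted p 0.0708) and with scaling to the central spread (0.0512). Of 13 microglia and macrophage markers 0 were called at either age by DESeq2, and 2 had an unadjusted p under 0.05 at each age, with summed ratios of 1.22 and 1.07. These were Mrc1 (0.43, SE 0.15, adjusted p 0.0819) and Csf1r (0.30, SE 0.12, adjusted p 0.232) at E13.5 and C1qa (0.25, SE 0.11, adjusted p 0.411) and C1qc (0.20, SE 0.10, adjusted p 0.611) at E18.5. None of the genes of these lists was at 0 at either age.

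Of the erythroid markers that passed the filter, 4 of 12 fell in Dio3-/- brains at E13.5 (Hbb-bt by 0.65, Hba-a1 by 0.45, Hba-a2 by 0.45 and Alas2 by 0.50 on the log2 scale), with a summed ratio of 0.830, and these calls make 33.3% of the list beside 3.56% of all genes. The call of Alas2 was lost with scaling to the central spread (adjusted p 0.0757). At E18.5 2 of 7 fell (Hbb-bt by 0.47 and Hba-a1 by 0.38), with a ratio of 0.800. These calls make 28.6% of the list, beside 1.37% of all genes. The alpha-globin genes Hba-a1 and Hba-a2 are near-identical copies, so their separate counts are uncertain. Of 5 lymphatic endothelium markers, Prox1 fell at E18.5 (-0.19, SE 0.05, adjusted p 0.0126 by DESeq2), while Reln (-0.17, SE 0.08, adjusted p 0.376) and Prox1 (-0.19, SE 0.10, adjusted p 0.422) had the smallest p at E13.5. Reln and Prox1 are also expressed by neural cells. The call of Prox1 at E18.5 makes 20% of the list, beside 1.37% of all genes. The part that any of these cell types, or the sequencing batch, had in the values of Cldn12 and Flt1 was not tested.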

How the data were processed

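Whole-brain RNA of 14 fetuses was depleted of ribosomal RNA and sequenced in 2 batches, single end at 75 bases. Per the submitters' processing notes, the authors used cutadapt 3.1, STAR 2.5.3a, HTSeq and DESeq2 1.30.1 on GRCm38. The authors counted reads per gene without strand, adjusted the counts for batch with ComBat-seq, which can change fold changes and errors, and compared genotypes within each age. Each deposited table gives the authors' mean normalized count as a signal, a log2 fold change with its standard error, the deposited Wald statistic as a score and the deposited p-value, each as the authors' pooled values. There were 0 unused columns with values of single samples.

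The independent filter (50 quantiles of the mean count, cutoffs 21.7 at E13.5 and 13.8 at E18.5) and the adjustment after Benjamini and Hochberg were redone over all genes with Python 3.11.15, statsmodels 0.14.6 and scipy 1.17.1, and tested on simulated data. The difference of the fold changes between ages was tested with the combined standard error of both ages and a normal reference, over genes with a mean count of at least 10 at both ages. Intervals are 95%. Intervals and p-values rest on the authors' standard errors, which come from counts already adjusted for batch. Without values per fetus it could not be checked how well these errors reflect the spread between fetuses. Some of the fetuses were littermates, and the part of litter in that spread was not tested. Implied genotype means assume that the deposited mean is the average over the libraries of the age. Exon lengths and positions come from GENCODE M21, to which 41897 genes were matched and 37 were not. Members and lists were chosen with earlier results of these data known, so no called share of a list is read against that of all genes. Named are the members, the called genes of 12 other lists (189 genes), the 2 genes with the smallest p where a list had none called, selected ligands, transporters and the paralog Abcb1b, Dio3 and Klf9. 1 gene that this rule selects is not reported here. Cldn25 and Ahsp had no entry in the tables used here.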

Additional observations from a re-analysis of the deposited data

Results flagged for a closer look

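Changes that differed between E13.5 and E18.5 by the normal test of the difference were found for 6 of the named genes. Cldn12 differed by 0.59 (SE 0.12, adjusted p 0.000112), higher at E18.5. Vegfa differed by 0.34 (SE 0.09, adjusted p 0.0158), also higher at E18.5. Acta2, a smooth muscle gene, differed by -1.10 (SE 0.27, adjusted p 0.0048), with a rise at E13.5 alone passing the test. Aplnr differed by -0.44 (SE 0.13, adjusted p 0.0388), with neither age passing alone. Klf9 differed by 0.76 (SE 0.20, adjusted p 0.0101), with a rise at both ages. Dio3 differed by 1.99 (SE 0.28, adjusted p 9.83e-10), with a fall at the earlier age and a rise at the later age. For E13.5 the paper instead reports increased Dio3 by qPCR, in a sample set extended with females. For E18.5 it reports increased Cldn12 and Vegfa by qPCR, in the sequenced samples plus others that included females. With the t distribution none of the 6 differences passed (adjusted p from 0.0513 for Dio3 to 0.384 for Aplnr). Scaling to the central spread took that of Vegfa to an adjusted p of 0.0629 and that of Aplnr to 0.124. No group could be searched for single outlying fetuses, since values per fetus were not analysed here. In the paper's clustering at E18.5 a Dio3+/+ sample fell among the Dio3-/- samples, while the paper's principal component analysis separated the genotypes.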

How the results depend on the processing

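With a t distribution for the Wald statistic (4 degrees of freedom at E13.5, 6 at E18.5 and 10 for the difference), the members called at E18.5 went from 2 to 0, the members that differed between the ages from 1 to 0, and the calls in the other lists from 13 to 0 at E13.5 and from 15 to 0 at E18.5. Among all genes it left 0 calls at E13.5, 1 at E18.5 and 9 for the difference, in place of 585, 242 and 347. Scaling the statistics to their central spread (1.13 at E13.5) left 7 calls in the other lists at E13.5 and 320, 212 and 192 among all genes. Under the other settings the members called were Cldn12 and Flt1 at E18.5 and none at E13.5, and of 120 alternative results of the members 118 kept their direction and side of the threshold. Of 702 results of named genes 654 did so, 47 no longer passed and 1 turned its direction: centring on the median of all genes gave Nrp2 a log2 fold change of 0.00 at E13.5 (adjusted p 0.995). The same centring brought the difference between ages of Erg to an adjusted p of 0.0480, and a mean count of at least 50 at both ages brought those of Erg (0.0402), Nid1 (0.0471) and Rgs5 (0.0478) under the threshold. Scaling to the central spread took the difference of Vegfa to an adjusted p of 0.0629. With the longest transcript as gene length, the median level of the members was 32.2 at E13.5 and 31.7 at E18.5, in place of 29.998 and 26.9. No paired analysis was possible because the tables hold no value per fetus and the labels give no pairing of litters. For the same reason leaving out a replicate, another normalization and a fit by edgeR were not run.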
